A study of Mus musculus with 12 samples.

Results

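Lcn2 and Wfdc2 encode small secreted proteins of luminal epithelium, and their mRNA levels were followed across all 12 tumoursphere libraries of the study. They are 2 of the 18278 genes with counts. Both genes were chosen by name after their levels in these same libraries were known, high in the parental libraries and low in the knockout-labelled ones, so their levels and differences are given as descriptions with no test.

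The study asked what the transcription factor gene Nfib does in metastatic mammary cancer cells. LM1 and LM9 are mouse lines, each isolated from a lung metastasis of PIK3CA-mutant mammary cancer cells that carried an inducible piggyBac transposon, so all 4 groups share that mutation and that mutagenesis. LM1 Nfib KO and LM9 Nfib KO are oligoclonal pools of these lines after CRISPR-Cas9 targeting of Nfib. Each of the 4 groups had 3 libraries. Tumourspheres, which are clusters that grow in low-attachment plates, were cultured for 6 days in DMEM:F12 with B27 and with EGF and basic FGF at 20 ng/ml each, from a density of 10000 cells per ml.

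Library totals ran from 29249075 to 37162594 counts. Levels are counts-per-million (CPM) after TMM scaling, a correction for the composition of each library, and a floor of 3 counts stood at 0.0730 to 0.121 CPM, for counting error only. The libraries labelled knockout did not have less Nfib mRNA. Nfib ranged from 196 to 241 CPM in LM1 and from 228 to 239 CPM in LM1 Nfib KO, and from 120 to 210 CPM in LM9 and from 227 to 247 CPM in LM9 Nfib KO. A frameshift allele need not lower the mRNA, and per the study's methods the clones were screened by immunoblotting, so these levels do not settle the label. LM9 replicate 1 stood apart from its group. Across genes, its log2 CPM correlated at 0.991 to 0.992 with the LM1 libraries and at 0.963 to 0.966 with the other LM9 libraries. The LM1 Nfib KO and LM9 Nfib KO libraries correlated with each other at 0.993 to 0.994, as did replicates within either group, and at 0.685 to 0.701 with the libraries of their own parental line. By these correlations the knockout-labelled groups cannot be told apart by parental line, so a call in both lines is not counted here as a pair of independent observations, and the identity of these lines was not tested. The parental and knockout-labelled profiles differed widely: 81.2% of the 18176 genes tested differed between LM1 Nfib KO and LM1 at an adjusted p below 0.05 (limma-voom), and 82.3% between LM9 Nfib KO and LM9. Counts of called genes below are read against these shares.

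Lcn2, lipocalin 2, is a carrier protein whose pocket binds iron-loaded siderophores, the small chelators by which bacteria and cells move iron. It is stored in neutrophil granules and is secreted by mammary, airway and kidney epithelium during the acute-phase response, where interleukin 1 and interleukin 17 signals act through NF-kB, IkB-zeta and C/EBP factors. Wfdc2, also known as HE4, carries whey acidic protein (WAP) domains, the fold shared with protease inhibitors of milk and mucus, and its product is measured in serum as a marker of ovarian carcinoma.

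Both genes lie on chromosome 2 (GRCm38, the assembly of mm10), far from each other. Lcn2 (ENSMUSG00000026822) spans chr2:32384633-32388252 on the minus strand and Wfdc2 (ENSMUSG00000017723) spans chr2:164562413-164568510 on the plus strand in GENCODE M21. No other annotated gene overlaps either span. Because both genes were low in the same libraries, the sequence before their RefSeq start sites was searched for factor motifs on both strands. Of the 250 bases before each start, the longest stretch free of annotated untranslated exons is shown, 5′ to 3′ on the strand of the gene, with the NFI half-site TTGGC, read as GCCAA on the other strand, and the C/EBP motif TTGCNNAA in capitals. The Lcn2 stretch is chr2:32387798-32387989, from 250 to 59 bases before the start at 32387739, and its 5′ part lies in a coding exon of 1 longer GENCODE transcript. The Wfdc2 stretch is chr2:164562475-164562578, from 240 to 137 bases before the start at 164562715.
Lcn2: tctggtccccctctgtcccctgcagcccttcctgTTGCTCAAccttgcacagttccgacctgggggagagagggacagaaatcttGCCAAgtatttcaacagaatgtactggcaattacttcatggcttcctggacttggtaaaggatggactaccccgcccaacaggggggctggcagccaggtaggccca
Wfdc2: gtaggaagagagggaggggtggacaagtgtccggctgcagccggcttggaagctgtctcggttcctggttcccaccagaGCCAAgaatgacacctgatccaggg
Each window of 250 bases held 1 NFI half-site, first base 165 bases before the start in Lcn2 and 161 in Wfdc2, as did 41.9% of the 27025 RefSeq promoters of the same length. Neither held the NFI palindrome of facing half-sites 5 bases apart, which 0.0407% of promoters held. The C/EBP motif occurred once before Lcn2, 216 bases upstream, and not before Wfdc2, against 9.55% of all promoters. The NF-kB consensus, the hypoxia motif ACGTG and the AP-1 motif TGANTCA were in neither window, and were in 3.75%, 16.6% and 6.87% of promoters. CG dinucleotides numbered 3 before Lcn2 and 14 before Wfdc2, against a median of 6 over all promoters. Other matches were in both windows: a looser C/EBP motif, TTNNGNAA, once each (216 bases before the start in Lcn2, where it overlaps the C/EBP match, and 133 in Wfdc2, against 36.9% of promoters), the GC box GGGCGG once each (32.9%), and the ETS core GGAA 4 times in Lcn2 and 5 times in Wfdc2 (93.4%). A match here is a match of letters only.

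Lcn2 was among the most abundant mRNAs of the parental tumourspheres. Its level was 4519.6, 4398 and 4342 CPM in the LM1 libraries and 4481, 4069.6 and 4134 CPM in the LM9 libraries, in replicate order. In the knockout-labelled libraries it was 2.16, 1.59 and 2.03 CPM for LM1 Nfib KO and 2.18, 2.12 and 1.92 CPM for LM9 Nfib KO. Lcn2 alone took 0.337 to 0.428% of all counts in a parental library. All 6 parental libraries were high and all 6 knockout-labelled libraries low, with no overlap, which is how the gene was chosen. How many of all genes divide without overlap was not counted. By call, 33.5% of all genes tested were lower in the knockout-labelled libraries of both lines. The ranges of LM1 and LM9 overlapped and so did those of the 2 knockout-labelled groups. The mean was 4419.7 ± 91.0 CPM in LM1 (SD, n = 3) and 1.93 ± 0.299 CPM in LM1 Nfib KO (SD, n = 3), a ratio of 2289, and the fitted log2 difference was -11.16 (SE 0.12). In LM9 the mean was 4228 ± 221 CPM and in LM9 Nfib KO 2.07 ± 0.133 CPM (SD, n = 3 each), with a log2 difference of -10.99 (SE 0.11), and -10.94 without LM9 replicate 1. In bulk RNA, fewer cells of a type and less RNA per cell cannot be told apart.

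Wfdc2 followed the same division at a lower height. It reached 1264, 1145 and 1175 CPM in LM1 and 1217, 1388 and 1364 CPM in LM9. The LM1 Nfib KO libraries held 1.86, 1.38 and 1.64 CPM and the LM9 Nfib KO libraries 1.81, 1.65 and 1.59 CPM. Again no parental library overlapped a knockout-labelled one, and the groups on each side overlapped each other. The mean was 1195 ± 61.9 CPM in LM1 against 1.63 ± 0.239 CPM in LM1 Nfib KO (SD, n = 3 each), a log2 difference of -9.51 (SE 0.14). The mean was 1323 ± 92.5 CPM in LM9 against 1.68 ± 0.118 CPM in LM9 Nfib KO (SD, n = 3 each), a log2 difference of -9.61 (SE 0.14), and -9.66 without LM9 replicate 1. The division by label, for which both genes were chosen, was seen in both, and the difference was deeper for Lcn2 in both lines.

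**Figure D1:**
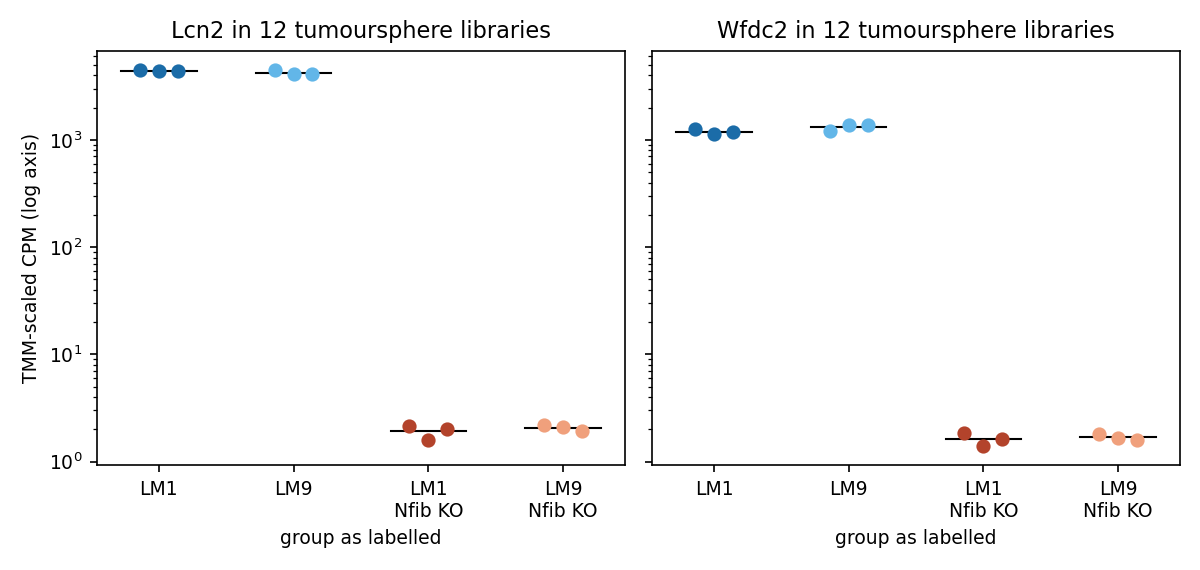
Level of Lcn2 (left) and Wfdc2 (right) in each library, in TMM-scaled CPM on a log axis, by group as labelled; points are the 3 libraries of a group in replicate order and lines their mean. Parental libraries lie between 4069.6 and 4519.6 CPM for Lcn2 and between 1145 and 1388 CPM for Wfdc2, and every knockout-labelled library lies between 1.38 and 2.18 CPM.

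Neither gene was at zero in the knockout-labelled libraries. Lcn2 had 61 to 87 counts there and Wfdc2 53 to 74 counts, well above the floor of 3. What remained was 0.0463% of the parental mean for Lcn2 and 0.132% for Wfdc2, over 6 libraries on each side. Among the 99 genes with a parental mean of at least 1000 CPM, the median share that remained was 29.1%. Lcn2 and Wfdc2 were 2 of 11 such genes below 1%, and 3 had a smaller share than Lcn2, picked out here after their values were seen: Serpine2, a protease inhibitor, at 0.00254% with 3 to 7 counts per library, the secreted chaperone Clu at 0.0200%, and the complement protein C3 at 0.0440%. Residual shares of abundant mRNAs thus differed from gene to gene, and the source of the residual counts was not tested.

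The place of the 2 genes among all transcripts was read from CPM per kilobase of exon, the scale on which different genes can be compared. In the parental libraries Lcn2 stood at ranks 18 to 41 of 18268 genes with a known length, and Wfdc2 at ranks 35 to 60. In the knockout-labelled libraries Lcn2 stood at ranks 13358 to 13991 and Wfdc2 at ranks 11783 to 12462. The order of the pair turned between the 2 sides. Per kilobase, Lcn2 exceeded Wfdc2 by 1.27 to 1.67 times in the parental libraries, whereas its level was 0.5002 to 0.556 of that of Wfdc2 in the knockout-labelled libraries. With the longest transcript as the length in place of all exons joined, the ratio was 1.81 to 2.37 in parental and 0.711 to 0.791 in knockout-labelled libraries, so the turn held on both lengths. On CPM not divided by length, which does not compare genes, the ratio stayed above 1 in the knockout-labelled libraries, at 1.15 to 1.28. The turn thus rests on the lengths used, 2623 and 1374 bases for Lcn2 and 1140 and 849 bases for Wfdc2. Lengths of shorter transcripts were not tried.

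**Figure D2:**
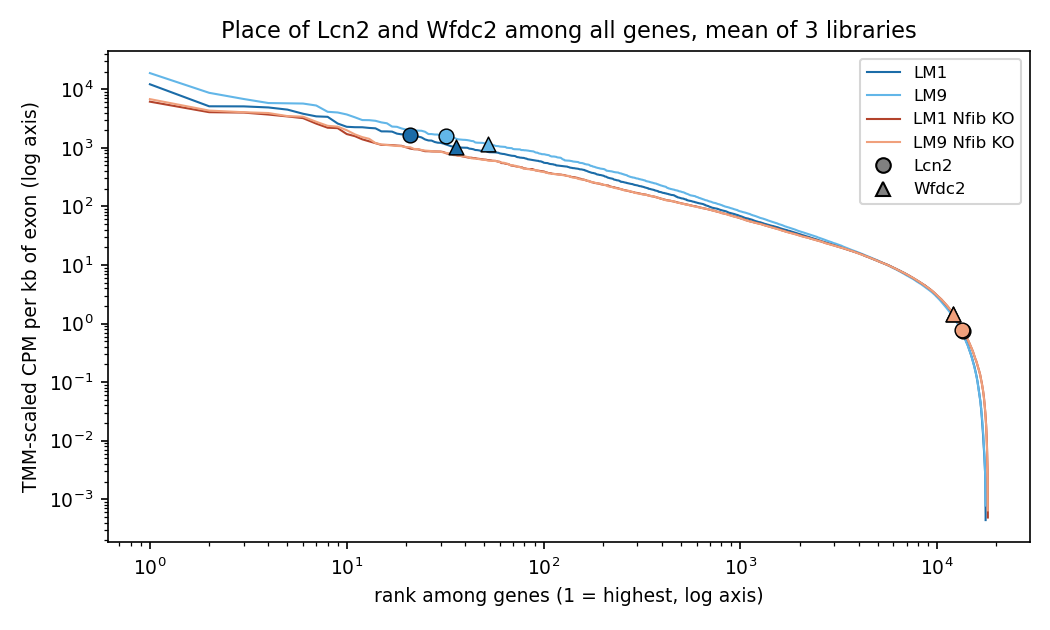
Mean level of all genes in each group, in TMM-scaled CPM per kilobase of exon, against rank, both on log axes; circles mark Lcn2 and triangles Wfdc2 in the colour of their group. In the parental groups both genes sit near the top of the curve, at ranks 18 to 60 by library, and in the knockout-labelled groups both sit past rank 11783, with Wfdc2 above Lcn2.

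Between LM1 and LM9, the pair differed in opposite directions once LM9 replicate 1 was set aside. On TMM-scaled CPM, Lcn2 in LM9 replicates 2 and 3 lay below all LM1 libraries, and Wfdc2 lay above all of them. The fitted difference, LM1 minus LM9, was 0.07 log2 units for Lcn2 (SE 0.06) and -0.15 for Wfdc2 (SE 0.07) with all libraries, and 0.11 and -0.21 without LM9 replicate 1. These small differences depended on the scaling. As CPM of the plain library total, Lcn2 was 3365 and 3398 in LM9 replicates 2 and 3 against 4107 to 4276 in LM1, whereas Wfdc2, at 1148 and 1121, fell within its LM1 range of 1090.2 to 1196. Lcn2 was thus lower in those LM9 libraries on both scales, and Wfdc2 was higher after TMM scaling and not by plain totals. Another correction for composition, by median ratios, gave a fitted difference of -0.17 for Wfdc2 with all libraries, against -0.013 with plain totals.

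The genes whose profile lay nearest to each member were found by the root mean square difference of centred log2 CPM over the 12 libraries. For Lcn2 they were AI661453 at 0.16, C3 at 0.24, Bend4 at 0.31, Trerf1 at 0.32 and Prkcz at 0.36 log2 units. C3, the central complement protein and another acute-phase product, was the one with counts on both sides: 4549 ± 75.3 CPM in LM1, 5681 ± 991 CPM in LM9, 2.32 ± 0.172 CPM in LM1 Nfib KO and 2.18 ± 0.0399 CPM in LM9 Nfib KO (SD, n = 3 each). The other 4 had no count in any knockout-labelled library, so their profile there was set by the prior count of 0.5. For Wfdc2 the nearest were F2rl1 at 0.27, Tns4 at 0.28, Sdr39u1 at 0.29, Syne4 at 0.31 and Ltbp4 at 0.34 log2 units. F2rl1 and Sdr39u1 also had no count in any knockout-labelled library. Tns4, a focal adhesion protein, went from 571 ± 11.9 CPM in LM1 to 1.10 ± 0.179 CPM in LM1 Nfib KO (SD, n = 3 each). Lcn2 and Wfdc2 were 0.77 log2 units apart, which made Wfdc2 the neighbour of rank 38 for Lcn2. Most of this likeness is the step between labels, which every point shares.

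Genes beside the 2 loci were called in both directions. Of the 9 genes with counts within 100 kb of Lcn2, 3 were higher and 5 lower in the knockout-labelled libraries of both lines, where 39.6% of all genes tested passed as higher and 33.5% as lower in both lines (limma-voom, adjusted p below 0.05 in each). The largest rise was that of Naif1, by 2.25 log2 units in LM1 and 3.75 in LM9, or 4.66 without LM9 replicate 1. By the mean of both lines the deepest fall was that of Slc25a25, a mitochondrial carrier, with log2 differences of -1.73 and -2.50, next to 1110008P14Rik with -1.86 and -2.28. Near Wfdc2, 6 genes had counts, of which 5 were lower and 1 higher. Gm14317, whose parental means were 0.803 and 0.546 CPM, had no count in any knockout-labelled library, so its fold has no firm value. The riser was Wfdc8, a WAP gene 27948 bases away. Wfdc8 had at most 1 count per parental library and 1.99 to 2.06 CPM as knockout-labelled means, the opposite of Wfdc2 within one cluster.

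Lcn2 acts through receptors and partners, and these were measured next. Slc22a17, the receptor that takes up Lcn2, was barely expressed, at 0.0666 ± 0.0287 CPM in LM1 and 0.519 ± 0.0384 CPM in LM1 Nfib KO (SD, n = 3 each). It passed as higher in both lines, from 1 to 3 counts per parental library to 18 to 21 counts per knockout-labelled library. Mmp9, the gelatinase that Lcn2 binds and stabilises, fell with log2 differences of -7.43 (SE 0.51) in LM1 and -8.47 (SE 0.51) in LM9. Its parental level was 602 ± 23.8 CPM in LM1 and 1401 ± 672 CPM in LM9 (SD, n = 3 each), with LM9 replicate 1 at 626 CPM. Bdh2, an enzyme proposed to make a mammalian siderophore, had group means of 2.64 to 4.24 CPM, did not pass in LM1 (log2 difference -0.23) and passed as higher in LM9 (0.73). Over the alternatives its LM9 difference ran from 0.47 to 1.28, with an adjusted p of up to 0.195, so that call was not stable. The receptor genes Lrp2 and Mc4r were not analysed here.

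Iron handling genes went both ways. Of 15 tested, 7 were higher and 6 lower in both lines, against 39.6% and 33.5% of all genes, and their median log2 difference was 0.21 beside 0.11 for all genes. The ferritin chains that store iron fell, Ftl1 with log2 differences of -1.82 in LM1 and -2.42 in LM9 and Fth1 with -1.32 and -2.15. Cp, a ferroxidase that helps iron leave cells, fell from 1903 ± 101 CPM in LM1 to 1.55 ± 0.101 CPM in LM1 Nfib KO (SD, n = 3 each). Tfrc, the transferrin receptor, rose by 2.35 and 2.01 log2 units, Aco1, an iron sensor, by 1.88 and 1.82, and Hmox1, which frees iron from haem, by 5.51 and 5.22. Within the same roles others went the opposite way, named after their values were seen: Steap3, a reductase of the transferrin cycle, fell with log2 differences of -0.52 and -0.74, and Ncoa4, which delivers ferritin for breakdown, rose by 0.19 and 0.24.

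Structural relatives of the 2 genes were called in both directions. Of 22 other WAP genes listed, 8 were tested, and 3 were higher and 3 lower in both lines, near the 39.6% and 33.5% of all genes. Slpi, the secretory leukocyte protease inhibitor and the most abundant relative, fell from 2252 ± 90.2 CPM in LM1 to 7.36 ± 0.436 CPM in LM1 Nfib KO (SD, n = 3 each), a log2 difference of -8.26 (SE 0.19), with -8.80 in LM9. Wfdc12, at 13.0 ± 1.56 CPM in LM1 (SD, n = 3), and Wfdc5, at 1.86 ± 0.237 CPM, fell to no count in any knockout-labelled library. Wfdc8 and Wfdc1 rose, Wfdc1 from 0.316 CPM in LM1 to 2.30 CPM in LM1 Nfib KO. Wfikkn2, which stayed below 1 CPM, was the third riser and is named after its values were seen. Of 19 lipocalin genes listed, 6 were tested: Ptgds, the prostaglandin D synthase of this fold, fell from 16.7 CPM in LM1 to at most 3 counts per knockout-labelled library, C8g from 1.85 CPM to at most 5 counts, and Orm1 with log2 differences of -1.71 and -1.89. Apod and Orm2, both below 1 CPM and named after their values were seen, rose, and without LM1 replicate 3 the rise of Orm2 in LM1 had an adjusted p of 0.0703 (limma-voom). No WAP or lipocalin relative tested other than Slpi had a parental mean above 20 CPM.

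Other secreted defence proteins of epithelium were mostly lower with the pair. Of 33 listed, 18 were tested, and 14 were lower and 2 higher in both lines, against 33.5% lower and 39.6% higher among all genes. Their median log2 difference was -5.67, and -5.21 with genes that had no count on one side set to their bound, beside 0.11 for all genes. Some of the lower genes are on several lists, so the counts of different lists are not separate observations. C3, Cfb and Lbp are also acute-phase targets, Ltf and Muc1 also luminal markers, and S100a8 also a neutrophil marker. In LM1 and LM9, Clu fell with log2 differences of -12.53 and -11.92 and C3 with -10.93 and -11.32. Lrg1, an acute-phase glycoprotein, fell from 44.8 CPM in LM1 to at most 2 counts per knockout-labelled library. The risers were Lpo, the lactoperoxidase of milk and saliva, and the mucin gene Muc16, each with no parental count and 34 to 75 counts in the knockout-labelled libraries. Calls of Muc4 and Chil1 in LM1 were lost when single libraries were left out, Muc4 without LM1 replicate 3 or LM1 Nfib KO replicates 1 or 3 and Chil1 without any 1 of the LM1 Nfib KO libraries, with adjusted p-values of 0.0510 to 0.0803 (limma-voom). The 4 genes not called lower in both lines, Lpo, Muc16, Bpifb1 and Pglyrp1, of which the last 2 are named after their values were seen, reached group means of at most 13.2 CPM.

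**Figure D3:**
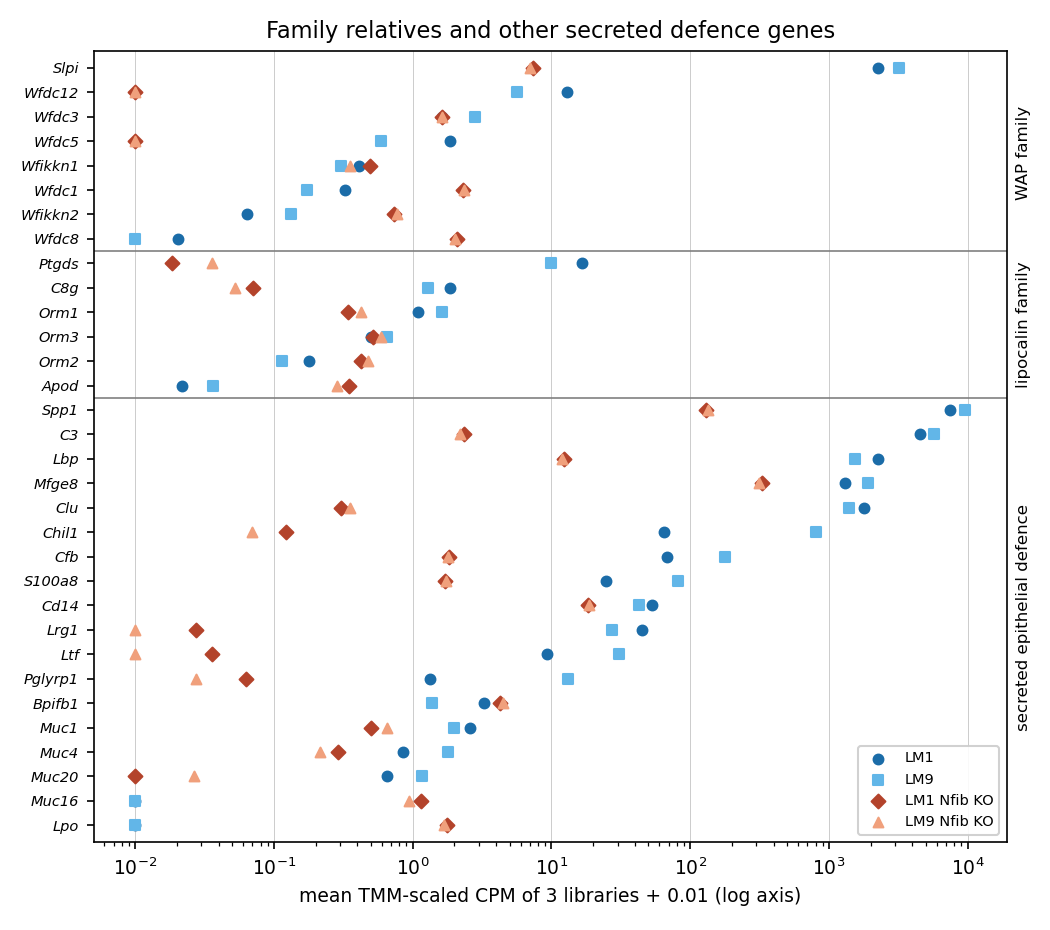
Mean TMM-scaled CPM of 3 libraries plus 0.01, on a log axis, for each gene with counts in the WAP, lipocalin and secreted defence lists, by group. Circles and squares are LM1 and LM9 and diamonds and triangles the knockout-labelled groups; among WAP and lipocalin genes only Slpi comes near the parental level of the pair, and among defence genes the knockout-labelled points lie to the left for all but Lpo, Muc16 and Bpifb1.

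The acute-phase pathway that induces Lcn2 in epithelium was described by role. Of 44 genes listed, 40 were tested, of which 25 were lower and 4 higher in both lines, against 33.5% and 39.6% of all genes. With libraries scaled to plain totals, 21 were lower and 8 higher. The median log2 difference was -1.30, beside 0.11 for all genes. Of the targets, 11 of 11 were lower. Saa3, a serum amyloid, fell from 105 ± 5.10 CPM in LM1 to 0.309 ± 0.0809 CPM in LM1 Nfib KO (SD, n = 3 each), a log2 difference of -8.37 (SE 0.48), with -8.66 in LM9. Hp, haptoglobin, fell from 52.3 CPM in LM1 to at most 1 count per knockout-labelled library, and Cxcl5, a neutrophil chemokine, fell with log2 differences of -10.44 and -8.45 (SE 1.22 in LM9, and -7.66 there without LM9 replicate 1).

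Of 9 transcription factor genes of the pathway, 5 were lower and 1 higher in both lines, against 33.5% and 39.6% of all genes. Nfkbiz, which encodes IkB-zeta, the NF-kB cofactor that the Lcn2 gene needs in many cells, fell with log2 differences of -4.67 and -4.49, from 164 ± 1.04 CPM in LM1 to 6.45 ± 0.348 CPM in LM1 Nfib KO (SD, n = 3 each). Cebpb fell with log2 differences of -2.72 and -3.75 and Cebpd, its relative, with -4.27 and -3.19, or -2.56 in LM9 without replicate 1. Among the NF-kB subunit genes Rela rose by 0.87 and 1.00 log2 units, and Nfkb1 fell in LM1 (-0.77) and did not pass in LM9 (log2 difference -0.29). The subunit genes Rel, Relb and Nfkb2 are named after their values were seen: Rel fell with log2 differences of -1.11 and -1.26, and Relb (0.43) and Nfkb2 (0.40 log2 units) rose in LM1 and did not pass in LM9 (0.08 and 0.07). Stat3, which carries interleukin 6 signals, fell with log2 differences of -0.50 and -0.26, but when libraries were scaled to plain totals it did not pass in LM1 (adjusted p 0.0613, limma-voom) and its sign turned to 0.10 in LM9. With only the compared groups in the fit its adjusted p in LM9 was 0.101, and without LM9 Nfib KO replicate 1 or 2 it was 0.0647 or 0.0616 (limma-voom). The 3 feedback inhibitors listed, Nfkbia, Tnfaip3 and Socs3, were all lower in both lines.

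Ligands and receptors were called in both directions. Against the 33.5% lower and 39.6% higher of all genes, 1 of 6 ligands tested was lower and 1 higher: Il1a, an interleukin 1 ligand, fell with log2 differences of -4.46 and -4.43, and the riser was Osm, oncostatin M, with at most 2 counts per parental library and 35 to 58 counts in each knockout-labelled library. Of 11 receptor genes, counting the adaptor Myd88, 5 were lower and 2 higher, against the same shares. Il1r1, the interleukin 1 receptor, fell with log2 differences of -1.74 and -1.10, and Il6st, the shared interleukin 6 receptor chain, measured 378 ± 11.5 CPM in LM1 against 377 ± 1.75 CPM in LM1 Nfib KO (SD, n = 3 each) and 331 ± 46.4 against 382 ± 1.90 CPM in LM9 (SD, n = 3 each), where it passed as higher (log2 difference 0.22) but had an adjusted p of up to 0.144 over the alternatives. Il17rc, a chain of the interleukin 17 receptor, rose by 3.53 and 3.12 log2 units. The fall of Osmr, a receptor of oncostatin M named after its values were seen, was less firm in LM9. The call was lost there without LM1 replicate 1 or 2 or any 1 of the LM9 Nfib KO libraries, with adjusted p-values of 0.0504 to 0.0808 (limma-voom). Its log2 difference in LM9 was -1.11 with all libraries and -0.38 without LM9 replicate 1. With libraries scaled to plain totals, 3 of the 5 lower receptor genes, Il17ra, Osmr and Myd88, did not pass in LM9 (adjusted p-values of 0.458, 0.181 and 0.358, limma-voom), nor did Myd88 in LM1 (0.104), and with only the compared groups in the fit Il17ra and Osmr did not (0.0511 and 0.126).

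**Figure D4:**
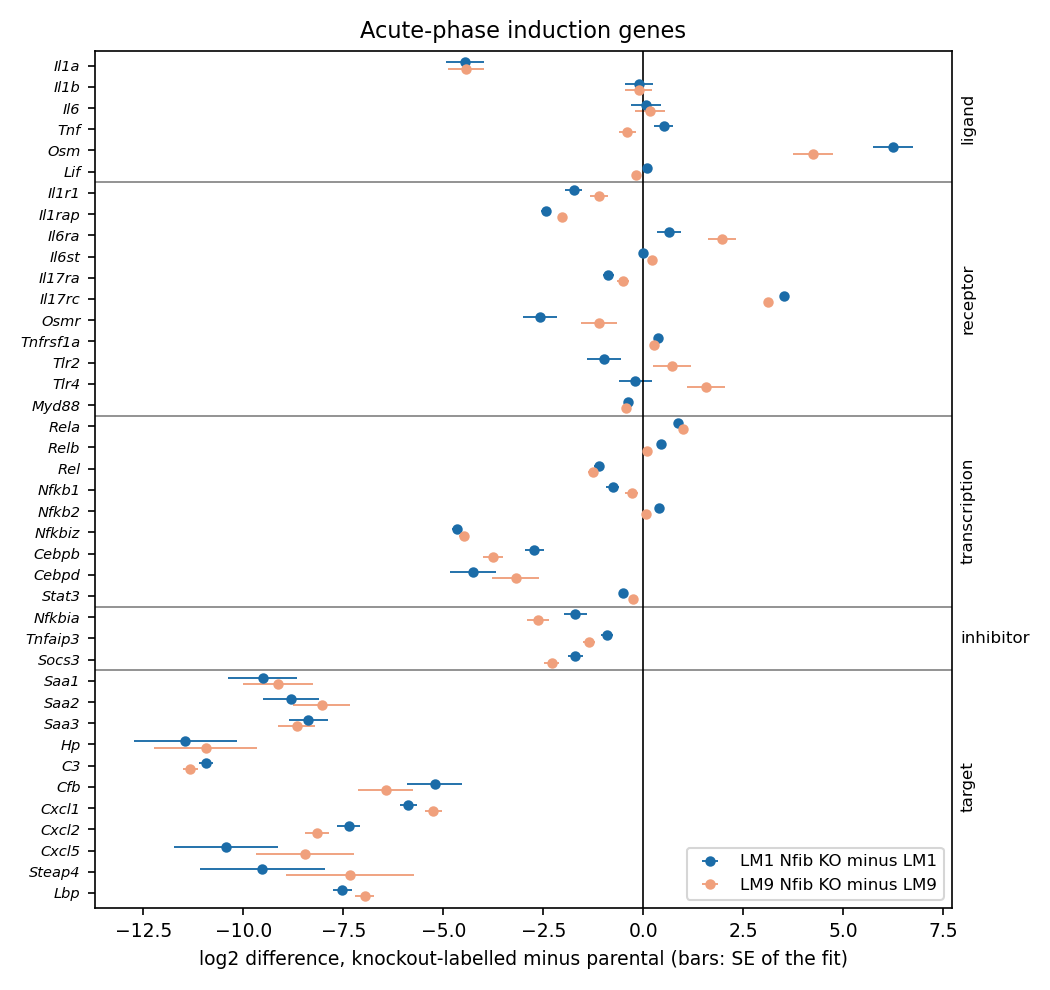
Fitted log2 difference, knockout-labelled minus parental, of 40 acute-phase genes in LM1 and LM9, in rows grouped by role, with bars for the SE of the fit. The 11 targets all lie below zero, Nfkbiz, Cebpb and Cebpd lie below zero, and Il17rc, Osm and Rela lie above it in both lines.

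The label of luminal proteins was set against mammary markers. Of 22 luminal markers tested, 18 were lower and 4 higher in both lines, against 33.5% and 39.6% of all genes, with a median log2 difference of -5.00, or -4.40 with genes at no count set to their bound, beside 0.11 for all genes. Among the 18, the fall of Cd24a, a surface protein named after its values were seen, was lost with plain library totals (log2 differences of -0.04 and -0.07, adjusted p 0.496 and 0.239, limma-voom). The 4 simple keratin genes were lower in both lines. Krt18 measured 479.9 ± 17.5 CPM in LM1 against 657 ± 145 CPM in LM9 (SD, n = 3 each), with 0 to 4 counts per knockout-labelled library. Krt8 reached 213 ± 9.59 CPM in LM1 with 1 to 7 counts per knockout-labelled library, and Cldn3, a tight junction protein, had none there. Epcam fell with log2 differences of -6.61 and -6.93. The epithelial ETS factors Ehf (-11.64 and -10.26) and Elf3 (-6.13 and -7.07) also fell. The 4 hormone-sensing markers were divided: Gata3 (-4.09 and -4.35) and Foxa1 (-4.24 and -4.92, or -5.57 in LM9 without replicate 1, from at most 29 counts per parental library) fell, whereas Cited1 and Esr1, the oestrogen receptor gene, rose, Esr1 by 1.43 and 2.48 log2 units. Gata3, Foxa1, Esr1, Krt7 and Krt19 are named after their values were seen. Kit and Aldh1a3, markers of luminal progenitors, also rose, Aldh1a3 by 6.73 and 5.61 log2 units to 15.7 CPM and Kit from no parental count to 279 to 303 counts. Of the other keratins, Krt7 kept 38 to 58 counts and Krt19 11 to 14 counts in each knockout-labelled library. How far the level of the pair follows these markers was not tested. Elf5 was not analysed here.

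Basal markers went both ways. Of 9 tested, 5 were higher and 2 lower in both lines, against 39.6% and 33.5% of all genes. Krt14 rose from 0.0584 CPM in LM1 to 6.79 CPM in LM1 Nfib KO, Mylk, a smooth muscle kinase, by 1.71 and 1.97 log2 units, and Snai2, a factor of basal and mesenchymal cells, from no parental count to 378 to 492 counts. Id4 fell from 2.60 CPM in LM1 to at most 1 count per knockout-labelled library, and Cnn1, calponin, fell from a lower level with log2 differences of -3.36 and -2.08. Trp63, the defining factor of basal cells, fell in LM1 from 17.1 to 0.302 CPM (log2 difference -5.79). In LM9 it did not pass (log2 difference -1.49), and its sign turned without LM9 replicate 1 (1.009). Cnn1 and Trp63 are named after their values were seen.

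**Figure D5:**
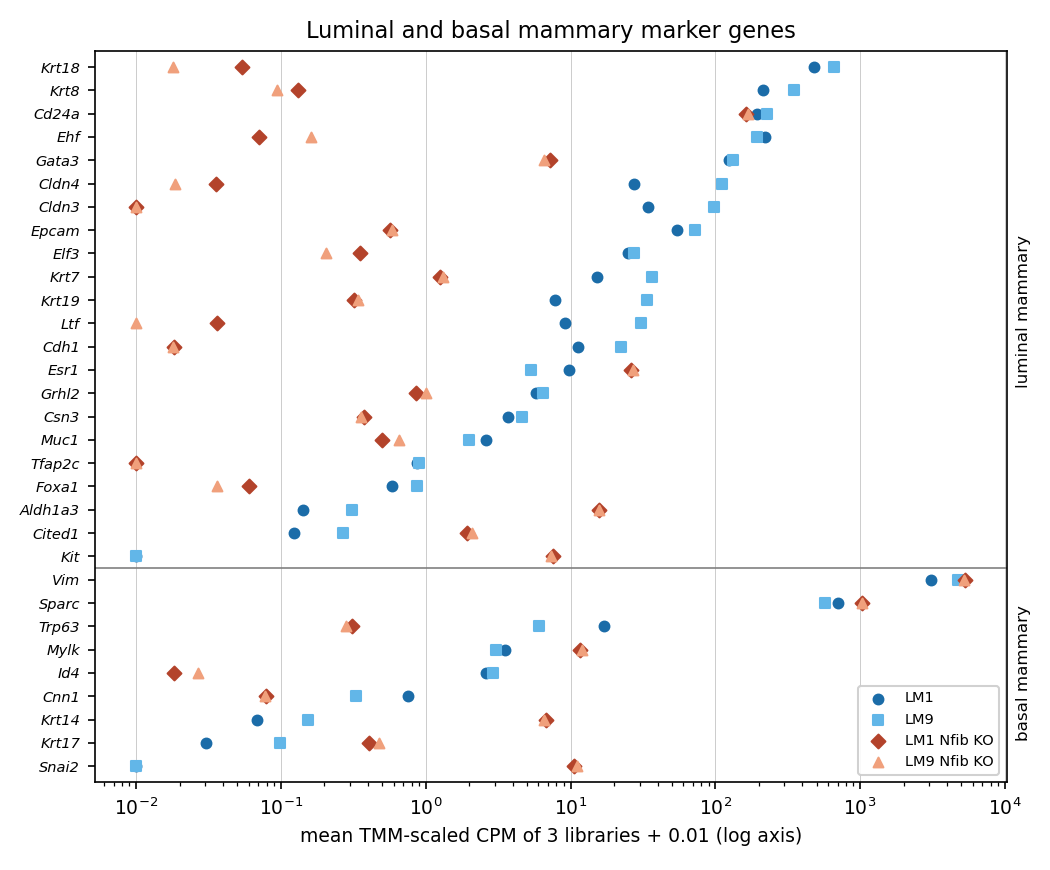
Mean TMM-scaled CPM of 3 libraries plus 0.01, on a log axis, for luminal and basal mammary markers with counts, by group, with symbols for the 4 groups. Knockout-labelled points lie to the left of the parental ones for 18 of 22 luminal markers, and to the right for Snai2, Krt14, Krt17, Mylk, Sparc and Vim among basal markers.

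Other cell types that make Lcn2 or Wfdc2 were checked by their markers. Ptprc, Adgre1, Ly6g, Ngp, Sftpc and Scgb1a1, which define leukocytes, macrophages, neutrophils and lung epithelium, were not analysed here, so these cell types could be judged only from the markers left. Per the study's methods, tumour cells were sorted on GFP when the lines were made, and the Nfib-targeted cells on RFP before clones were grown from single cells. The summed level of the 2 neutrophil markers with counts ran from 23.6 to 112 CPM in parental and from 3.28 to 4.86 CPM in knockout-labelled libraries: S100a8 fell, and Mpo rose from no parental count to 76 to 111 counts. The 4 macrophage markers with counts summed to 455 to 558 CPM in parental and 109 to 119 CPM in knockout-labelled libraries. Most of this was Cd68 alone, at 459 CPM in LM1 and 101 CPM in LM1 Nfib KO, and at 523 and 98.7 CPM in LM9. Cd68 and Mpeg1 were lower and Csf1r and Mrc1 higher. The 5 lung markers summed to 178 to 202 CPM in parental and at most 11.4 CPM in knockout-labelled libraries, with Napsa and Ager lower and Hopx higher. A kidney tubule list of 24 genes was added because an earlier account of these data named Aqp2. Its count includes Aqp2 and is a description only. Of 8 kidney tubule markers tested, 7 were higher and 1, Aqp3, was lower in both lines, against 39.6% and 33.5% of all genes. Hsd11b2 had too few counts to be tested, at 0.424 CPM in LM1 and 0.0765 CPM in LM1 Nfib KO. Aqp2, the water channel of the renal collecting duct, had at most 1 count in any parental library and 1087 ± 25.2 CPM in LM1 Nfib KO and 1008 ± 39.1 CPM in LM9 Nfib KO (SD, n = 3 each), and Tfcp2l1 and Slc12a1 also rose, Tfcp2l1 from 0.112 CPM in LM1 to 8.54 CPM in LM1 Nfib KO. Markers outside the mammary gland thus moved in both directions with the labels, and their part in the levels of Lcn2 and Wfdc2 was not tested.

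Within the parental side, the libraries of LM9 other than replicate 1 also differed from LM1 in the genes around the pair. That comparison was added after the data were seen. Without LM9 replicate 1, 33.4% of 18246 genes tested were higher and 32.4% lower in LM1 than in LM9 (limma-voom, adjusted p below 0.05). Of the acute-phase genes 20 of 40 were higher and 16 lower in LM1, of the secreted defence genes 6 of 18 were higher and 10 lower, and of the luminal markers 3 of 22 were higher and 16 lower. Examples over all LM9 libraries, picked after their values were seen, were Cxcl5, from 149 to 772 CPM against 808 to 894 CPM in LM1, Cebpb, from 262 to 560.3 CPM against 213 to 261 CPM, and Slpi, from 2297 to 3659 CPM against 2194 to 2356 CPM. The LM1 to LM9 differences of Lcn2 and Wfdc2 were small beside these.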

How the data were processed

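RNA was measured in 12 mouse tumoursphere libraries, grouped by title. Per the study's methods, the authors made strand-specific mRNA libraries for single-end sequencing, mapped the reads on mm10 using STAR and counted read 5′ ends over the exon union of each gene with QuasR. The deposited values were these raw counts, not normalised, 1 file per library, none pooled. Tool versions, the annotation release and the strand setting of the counting are not given in the sources used here. The labels do not say whether replicates were separate cultures, and the methods give technical triplicates for tumoursphere measurements, so p-values measure only the spread between these samples, which may be technical.

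Identifiers were named from GENCODE M21 (18268 of 18278 matched), and coordinates are 1-based. Counts were scaled by TMM and filtered with filterByExpr (minimum count 10), leaving 18176 genes, and fitted with limma-voom (limma 3.58.1, edgeR 4.0.16, R 4.3.3) with 1 mean per group over all 12 libraries. Tests were two-sided with Benjamini-Hochberg adjustment and a threshold of 0.05. Tested on simulated data for LM1 Nfib KO against LM1 with 17592 genes, the fit recovered 194 of 200 genes changed by 1 log2 unit, with 6 false calls. Only those 200 genes were changed, whereas most genes differed between the real libraries. The scaling and the rate of false calls at such a share of differing genes were not tested. The LM9 comparison was not tested in this way. Levels per length used joined exons. Promoter sequences are RefSeq (GRCm38.p6).

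The members and gene lists were chosen with earlier results of these data known. From each list the 3 largest rises and 3 largest falls that passed in both lines with at least 1 CPM in 1 group were named, with a fixed set of receptors, factors and markers, the neighbours with the largest rise and fall, and the 5 most similar profiles. Alternatives were the edgeR quasi-likelihood test, DESeq2 1.42.0, other scaling and filters, a replicate block, fits of 2 groups, other lengths and leaving out each library.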

Additional observations from a re-analysis of the deposited data

How the results depend on the processing

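Of 738 recomputed values and counts, 707 stayed within the spread between replicates or within 1.5 times the main count, and the difference of Lcn2 and Wfdc2 between the labels stayed negative in all of them. Libraries scaled to plain totals moved the median of all genes from 0.08 to 0.31 log2 units in LM1 and from 0.13 to 0.49 in LM9. Under those totals Lcn2 differed by -10.63 in LM9 and by 0.20 between LM1 and LM9, Wfdc2 by -9.29 in LM1, -9.25 in LM9 and -0.013 between LM1 and LM9, and 8 acute-phase genes were higher. By CPM without length the median ranks were 12941.5 (Lcn2) and 13300 (Wfdc2) in knockout-labelled libraries and 75.5 for Wfdc2 in parental ones, and by longest transcript Lcn2 ranked 10.5 and 12452. A mean of at least 5 CPM left fewer genes tested: higher were 0 receptor and partner, 0 lipocalin, 0 WAP, 0 secreted defence, 2 luminal, 3 basal, 0 neutrophil, 1 macrophage, 1 lung and 3 kidney genes, and lower were 1 lipocalin, 1 WAP, 0 basal, 1 macrophage and 1 lung gene. With only the 2 groups compared in each fit, 1 lipocalin gene was higher and 1 basal gene lower. With a log2 difference above 1 required as well, 2 acute-phase genes were higher. Leaving out 1 library gave 1 to 2 lipocalin genes higher, 1 without LM1 replicate 3, and 1 to 2 kidney genes lower, 2 without LM1 Nfib KO replicate 3. Same-numbered libraries did not deviate together (correlations -0.033 to 0.026), so the numbers were not read as pairs. With the replicate block, 14599 genes were called in LM1 and 14839 in LM9, against 14759 and 14965, and no list count moved by over 1.5 times. Other calls lost without 1 library were Cd24a (LM1 replicate 2) and Lamp3 (LM1 Nfib KO replicate 3, LM9 replicate 1 or LM9 Nfib KO replicate 3), and Lamp3 in LM9 was also lost with plain totals and with DESeq2. Genes with under 3 counts on one side have no firm fold at this depth.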
